A study of Mus musculus with 24 samples.

Results

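The miRNAs miR-23, miR-24 and miR-27 are encoded side by side in a pair of clusters of the mouse genome, the b cluster (mir-23b, mir-27b, mir-24-1) on chromosome 13 and the a cluster (mir-23a, mir-27a, mir-24-2) on chromosome 8. Their levels are described here in serum exosomes, exosomes of cultured hepatocytes, the hepatocytes themselves and liver after acetaminophen. The members were taken by name: 5 of the 1915 entries of the mature table (mmu-miR-23b-3p, mmu-miR-23a-3p, mmu-miR-24-3p, mmu-miR-27b-3p and mmu-miR-27a-3p, written below without the species prefix) and 6 of the 1186 entries of the hairpin table (mir-23b, mir-23a, mir-24-1, mir-24-2, mir-27b and mir-27a).

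Small RNA libraries were sequenced on Ion Torrent PGM and Proton instruments from 4 materials under 3 treatments. Liver and serum came from mice given 500 mg/kg acetaminophen with 100 µg/kg granulocyte colony-stimulating factor (G-CSF), 500 mg/kg acetaminophen alone, or nothing. Cultured primary hepatocytes and the exosomes of their medium came from cultures given 20 mM acetaminophen with 1 µg/ml G-CSF, 20 mM acetaminophen alone, or nothing. Each of the 12 conditions was sequenced as 2 samples, 1 per instrument, and the deposited tables hold their combined counts in 1 column, so no condition has replicates here. For the treated serum columns, the titles and the treatment fields give opposite treatments; the treatment fields are followed. Neither the labels nor the series text give the strain, the number of animals or cultures, or the time after the dose.

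A miRNA is cut from a hairpin precursor and guides Argonaute to messenger RNAs that pair with its seed, bases 2 to 8 of the mature strand. Each of the clusters is made as a single primary transcript, and miR-23, miR-24 and miR-27 have different seeds, so a cluster carries several target sets in one transcript. In published work the family is known from endothelial cells, lymphocytes and lipid metabolism in liver, and from the TGF-beta pathway in fetal liver.

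The mature sequences are shown because they decide which members the counts can tell apart. With the seed in capitals, the RefSeq sequences (GRCm38.p6) are:
miR-23a-3p: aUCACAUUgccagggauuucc
miR-24-3p: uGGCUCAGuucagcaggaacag
miR-27b-3p: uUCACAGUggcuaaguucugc
miR-27a-3p: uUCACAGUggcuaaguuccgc
miR-24-3p is encoded by mir-24-1 (chr13:63301251-63301272, plus strand) and by mir-24-2 (chr8:84208875-84208896, plus strand) with the same 22 bases. miR-27b-3p (chr13:63300760-63300780, plus strand) and miR-27a-3p (chr8:84208727-84208747, plus strand) share their seed and differ by the single substitution C19U, counted from the 5′ end with the miR-27a base first. In the next pair of lines the capital marks that base:
miR-27b-3p: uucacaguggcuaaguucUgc
miR-27a-3p: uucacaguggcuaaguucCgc
The hairpins of the miR-23 pair are shown in full, with miR-23a-3p (chr8:84208563-84208583, plus strand) and the matching stretch of mir-23b in capitals:
mir-23b (chr13:63300484-63300557, plus strand): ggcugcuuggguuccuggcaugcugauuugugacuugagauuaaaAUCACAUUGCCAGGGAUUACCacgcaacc
mir-23a (chr8:84208518-84208592, plus strand): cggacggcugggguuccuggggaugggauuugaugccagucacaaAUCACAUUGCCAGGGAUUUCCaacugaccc
The stretch of mir-23b differed from miR-23a-3p by 1 substitution, U19A, with the miR-23a base first. Between the hairpins of a pair the longest identical run was 20 bases for mir-23, 20 for mir-27 and 28 for mir-24.

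The b cluster spans 792 bases (chr13:63300484-63301275) and the a cluster 404 bases (chr8:84208518-84208921), both on the plus strand. From the first hairpin to the last, the gaps were 154 and 423 bases in the b cluster and 79 and 56 bases in the a cluster. In the GENCODE annotation of this build, the b hairpins lie within the protein-coding gene 2010111I01Rik on the same strand. There mir-23b overlaps no exon of it, mir-27b and mir-24-1 overlap annotated exons, and Fancc runs on the opposite strand. The a hairpins mir-23a and mir-27a overlap no other annotated gene, and mir-24-2 overlaps the long noncoding RNA gene Gm26532 by 2 bases.

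**Figure D1:**
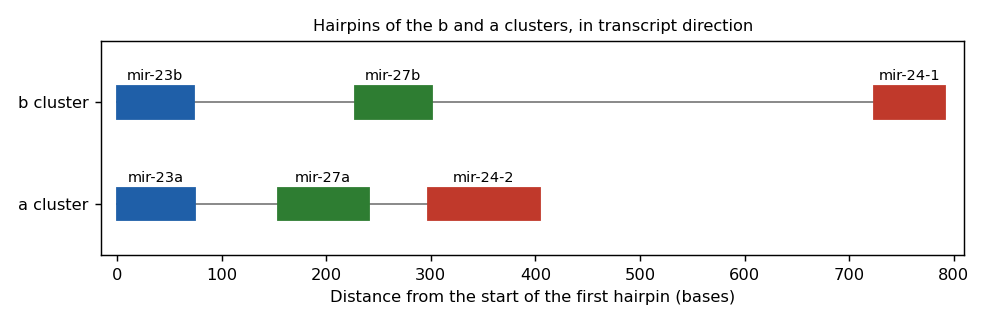
Map of the b cluster (upper line) and the a cluster (lower line), with each hairpin as a box at its distance in bases from the start of the first hairpin. Both clusters hold mir-23, mir-27 and mir-24 in this order, over 792 bases in the b cluster and 404 bases in the a cluster.

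The mature table held 4450, 5330 and 26741 counts in the acetaminophen plus G-CSF, acetaminophen and control hepatocytes, and 43699, 19695 and 49330 counts in the corresponding livers. The exosome columns held 47 to 6515 mature counts. Hairpin counts were 25.1 to 33.7 times the mature counts in 5 of these 6 hepatocyte and liver columns and 5.65 times in the acetaminophen liver, so that column stands apart in the hairpin table. As to the labelled cell types, miR-122-5p, the most abundant miRNA known in hepatocytes, took 9.96% to 17.3% of mature counts in hepatocytes and 12.7% to 40.1% in liver. The other hepatocyte markers, miR-192-5p and miR-194-5p, are given below with the test between hepatocytes and liver, where both were higher in hepatocytes. The 5 mesenchymal and stellate markers summed to between 0.833 and 8.83 counts in a hepatocyte column and to 357 to 1130.2 counts in a liver column. The 3 erythroid markers summed to 475, 1226.5 and 95 counts in the acetaminophen plus G-CSF, acetaminophen and control livers and to at most 1 count in a hepatocyte column.

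The a and b entries of a pair had almost the same counts in every hepatocyte and liver column. For miR-23b-3p and miR-23a-3p the deposited counts were 3 and 3 in acetaminophen plus G-CSF hepatocytes, 5.5 and 6.5 in acetaminophen hepatocytes, and 104 and 104 in control hepatocytes. In liver the same pair had 351 and 359.8 counts with acetaminophen plus G-CSF, 52.25 and 55.25 with acetaminophen, and 365.5 and 373.5 in the control. Of the 5 hepatocyte and liver columns with at least 10 counts in the pair, miR-23b-3p was equal to miR-23a-3p in 1 and lower in 4, with ratios of 0.846 to 1. For miR-27b-3p and miR-27a-3p, which differ by C19U alone, 3 of 5 columns were equal and the ratios lay between 1 and 1.01.

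In the 7 columns with at least 10 counts in each hairpin pair, which are the hepatocyte and liver columns and control serum exosomes, there were 21 comparisons of a b hairpin with its a hairpin. Over these the ratio stayed between 0.96 and 1.04, and no pair differed by more than 2.04% of its sum. The pair mir-24-1 and mir-24-2, whose mature strand is identical, differed by at most 0.239% of its sum. Counts were often fractions: within a tolerance of 0.001, 16 of the 39 nonzero mature values and 8 of the 54 nonzero hairpin values of the members were whole numbers. The labels and file headers do not say how reads that match both entries were divided, so the output of the b cluster and that of the a cluster cannot be told apart in these counts.

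**Figure D2:**
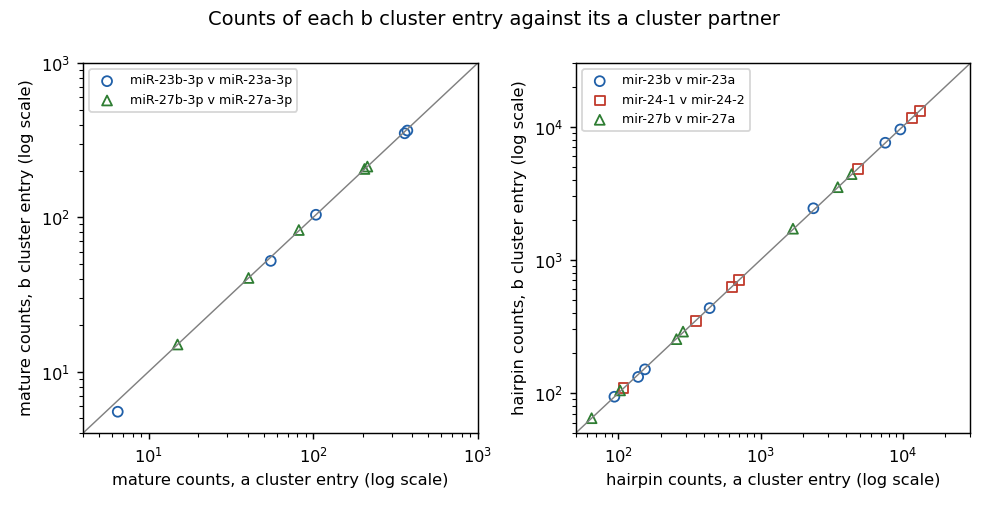
Counts of each b cluster entry against its a cluster partner, mature on the left and hairpins on the right, both axes on a log scale, 1 point per column with at least 10 counts in the pair. The points lie along the line of equality, with hairpin ratios between 0.96 and 1.04.

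In the same 7 columns the share of the b cluster was close to an even split; the counts in acetaminophen plus G-CSF serum exosomes, which were not, are given with that material. In mature counts of miR-23 and miR-27 it was 50% (exact binomial 95% interval 26.6% to 78.7%), 48.8% (32% to 63.6%) and 50.1% (44.9% to 55.3%) in acetaminophen plus G-CSF, acetaminophen and control hepatocytes. In liver it was 49.6% (46.7% to 52.6%), 49.2% (42.1% to 56.8%) and 49.7% (46.7% to 52.6%) in the same order of treatments. The mean share was 49.6% ± 0.729 in hepatocytes and 49.5% ± 0.258 in liver (SD over 3 columns each), and by hairpin counts 50.3% ± 0.361 and 49.9% ± 0.165. As the reads of a pair cannot be assigned to a cluster, this share cannot show whether the clusters differed in output, and no test of it is given.

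A few counts came from the 5p strands, which differ more between the clusters. The miR-24 5p strands show this. They are 23 and 22 bases long, share the seed and the bases in lower case at both ends, and differ in the stretch in capitals:
miR-24-1-5p: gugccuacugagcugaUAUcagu
miR-24-2-5p: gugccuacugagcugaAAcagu
Their counts were 0 and 0 in acetaminophen plus G-CSF hepatocytes, 0 and 1 in acetaminophen hepatocytes, and 1.83 and 2.33 in control hepatocytes. In liver miR-24-1-5p and miR-24-2-5p had 3 and 5 counts with acetaminophen plus G-CSF, 0.5 and 0.5 with acetaminophen, and 4 and 4 in the control. All 6 5p strands of the clusters together had at most 13 counts in a column, too few to compare the clusters by them. The mir-3074 hairpins, annotated on the strand opposite mir-24-1 and mir-24-2, had at most 11.75 counts in a hepatocyte or liver column, against 349 to 13192 for mir-24-1 and mir-24-2.

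Because the a and b entries carry the same signal, each pair is described below as 1 miRNA (miR-23, miR-24 and miR-27), a choice made after the near-equal counts were seen. The mature strands are of like length, 21 or 22 bases. In liver miR-24-3p had 1063, 223 and 660 counts with acetaminophen plus G-CSF, acetaminophen and no treatment. In hepatocytes it had 22, 43 and 309 counts. These were 2.43%, 1.13% and 1.34% of mature counts in liver and 0.494%, 0.807% and 1.16% in hepatocytes, so miR-24-3p was the most abundant single entry of the 5 in each of these 6 columns. It ranked between 6 and 30 among all mature entries. The miR-24-3p entry stands for both clusters, while the counts of miR-23 and of miR-27 are divided over a pair of entries. With a and b summed, miR-23 exceeded miR-24 in control liver only (739 against 660 counts).

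miR-23 (both entries summed) had 711, 107.5 and 739 counts in acetaminophen plus G-CSF, acetaminophen and control liver. In hepatocytes it had 6, 12 and 208 counts. As a share of mature counts this was 1.63%, 0.546% and 1.5% in liver and 0.135%, 0.225% and 0.778% in hepatocytes. The acetaminophen column was thus the lowest in liver, while in hepatocytes the control was the highest and both treated columns rested on few counts.

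miR-27, which in mouse and human liver is known as a regulator of lipid metabolism genes, had 411, 81 and 427 counts in acetaminophen plus G-CSF, acetaminophen and control liver. In hepatocytes it had 9, 30 and 165 counts. Per entry, miR-23 exceeded miR-27 in all 3 livers and in control hepatocytes, and miR-27 had more counts than miR-23 in both treated hepatocyte columns, on 9 against 6 and 30 against 12 counts.

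**Figure D3:**
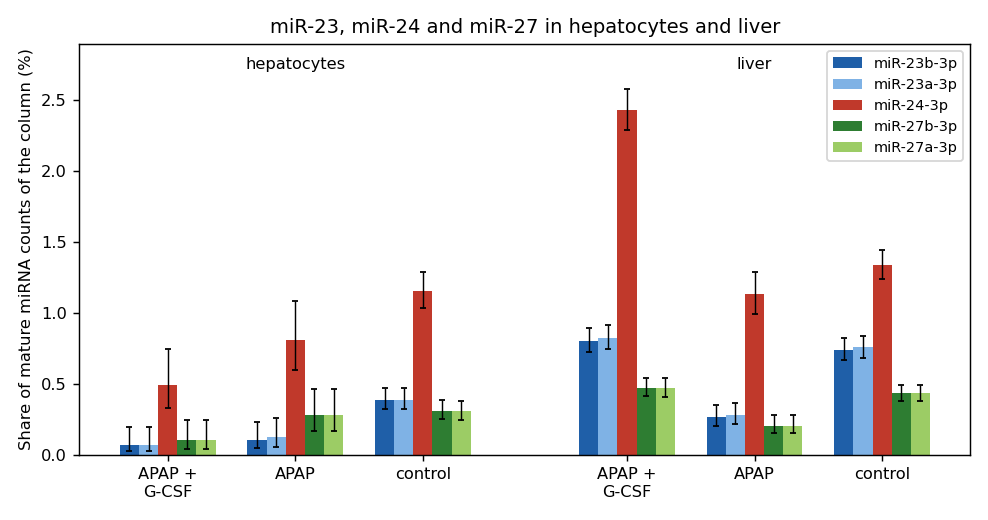
Share of mature counts in percent for each of the 5 members in hepatocytes (left) and liver (right) under acetaminophen (APAP) with G-CSF, acetaminophen and no treatment, with bars at the single value per column and error bars giving the 95% Wilson interval for counting error. miR-24-3p, whose single entry stands for both clusters, is the tallest bar in every column and reaches 2.43% in acetaminophen plus G-CSF liver.

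For each treatment comparison a miRNA was called when 1 column had at least 10 counts, the scaled counts differed at least 2-fold and the exact 95% interval of the ratio excluded equality. Such a call compares 2 libraries, and its interval covers counting error only. The counts of members called take each entry on its own, so that miR-23 and miR-27 each stand in them as a pair of entries with nearly the same counts. Beside them stands the count over the 3 miRNAs with a and b summed. Counts of hairpins called also take each hairpin on its own, so that mir-24 stands in them as a pair too, and no summed count is given for hairpins. Ratios between columns, their intervals and fitted values were computed from counts rounded to whole numbers.

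In acetaminophen hepatocytes miR-23 was lower than in control hepatocytes and miR-24 and miR-27 were not called. miR-23b-3p and miR-23a-3p were each 3.29-fold lower (95% interval 1.46 to 9.18), and their sum was 3.29-fold lower (1.85 to 6.48). Their 5.5 and 6.5 counts were rounded to the same whole number, which makes the ratios of the 2 entries equal. miR-24-3p was 1.37-fold lower, with an interval that included equality (0.990 to 1.92), and miR-27 was 1.04-fold lower (0.705 to 1.6). Thus 2 of 5 members were called lower, where 27% of the 100 mature miRNAs tested were called lower. With a and b summed it was 1 of 3, where 26.5% of 98 were called lower. With no filter on low counts before scaling, miR-24-3p was 2.02-fold lower (1.47 to 2.85) and was called too. That made 3 of 5 members, beside 46 of 100 mature miRNAs called lower. With the filter kept, the members' median log2 ratio was -0.45 and that of all tested miRNAs -0.49. By hairpin counts mir-23a had 137.5 in acetaminophen and 2353 in control hepatocytes and was 4.47-fold lower (3.77 to 5.35), and mir-24-2 had 628 and 4828 and was 2.02-fold lower (1.86 to 2.19). The hairpin mir-27a, with 285 counts in acetaminophen and 1691 in control hepatocytes, was 1.56-fold lower (1.37 to 1.77) and was not called. In all, 4 of 6 hairpins were called lower, where the share of all 302 tested was 31.8%.

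With G-CSF added to acetaminophen, all 5 members were lower in hepatocytes than in the control, on 3 to 22 counts each. Summed, miR-23 was 5.15-fold lower (2.33 to 14.2), miR-24 was 2.09-fold lower (1.35 to 3.38) and miR-27 was 2.73-fold lower (1.40 to 6.07). These 5 calls of 5 stand beside 29% of 100 mature miRNAs called lower in that comparison, and the members' median log2 ratio was -1.63 against -0.62 for all tested. With a and b summed, 3 of 3 were called lower, beside 27.6% of 98. All 6 hairpins were called lower too, 2.56-fold to 4.82-fold, beside 32.1% of the 290 hairpins tested. With DESeq2 size factors in place of TMM scaling, only miR-23b-3p and miR-23a-3p of the 5 mature members stayed called. Beside them 18 of 100 mature miRNAs were called lower with these factors.

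Between acetaminophen plus G-CSF and acetaminophen hepatocytes, none of the 3 members with at least 10 counts was called, where 27.7% of 47 mature miRNAs were called either way. miR-24-3p was 1.53-fold lower (0.895 to 2.68). miR-27b-3p and miR-27a-3p, each 4.5 against 15 counts, were 2.93-fold lower with intervals that included equality (0.935 to 12.1). The 4.5 was rounded down for these ratios, which makes them larger than that of the sum. Summed over both entries, miR-27 was 2.61-fold lower (1.21 to 6.25), which passed the rule; that was 1 of 3 miRNAs called lower, beside 19.1% of 47. The hairpins mir-27b was 1.95-fold lower (1.55 to 2.46) and mir-27a differed by a log2 ratio of -0.97 (-1.31 to -0.64), just short of the 2-fold limit. None of the 6 hairpins was called, beside 22.6% of 230 called either way.

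In acetaminophen liver miR-23 was again lower than in the control. miR-23b-3p was 2.51-fold lower (1.88 to 3.43) and miR-23a-3p 2.43-fold lower (1.83 to 3.29). miR-27b-3p and miR-27a-3p were each 1.91-fold lower (1.36 to 2.75) and missed the 2-fold limit, and miR-24-3p was 1.06-fold lower (0.907 to 1.24). The 2 calls of 5 stand beside 27.5% of 160 mature miRNAs called lower, and the members' median log2 ratio was -0.93 against -0.25 for all tested. With a and b summed, 1 of 3 was called lower, beside 27.2% of 158. By hairpin counts mir-23b and mir-23a were both 2.10-fold lower (1.90 to 2.31 and 1.91 to 2.31), while mir-24-2 was 1.57-fold lower (1.46 to 1.70) and mir-27a 1.63-fold lower (1.44 to 1.86). Of 6 hairpins, 2 were called lower, beside 19.2% of 432. In the same livers the erythroid markers took 6.23% of mature counts with acetaminophen and 0.193% in the control, and miR-122-5p took 40.1% and 23.6%; their part in the differences of the members was not tested.

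In acetaminophen plus G-CSF liver, miR-23 was called higher than in acetaminophen liver, and no member was called against the control. Against acetaminophen liver, miR-23b-3p was 2.44-fold higher (1.82 to 3.34) and miR-23a-3p 2.37-fold higher (1.78 to 3.21). miR-24-3p was 1.73-fold higher (1.49 to 2.0) and miR-27, summed, 1.84-fold higher (1.45 to 2.36), both under the 2-fold limit. These 2 calls of 5 stand beside 17.3% of 162 mature miRNAs called higher, and with a and b summed 1 of 3 was called, beside 16.9% of 160. The hairpins were 1.45-fold to 1.98-fold higher and none of 6 was called, beside 31.4% of 379 called either way. In these livers miR-122-5p took 12.7% of mature counts with acetaminophen plus G-CSF and 40.1% with acetaminophen, and the erythroid markers took 1.09% and 6.23%; their part in the differences of the members was not tested.

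Against control liver, none of the 5 members was called in acetaminophen plus G-CSF liver, where 28.7% of 171 mature miRNAs were called either way, and with a and b summed none of 3 was called, beside 29% of 169. miR-23 and miR-27, summed, were each 0.98 times the control (0.879 to 1.08 and 0.850 to 1.12). miR-24-3p was 1.63-fold higher, with an interval of 1.48 to 1.80 that excluded equality but stayed under 2-fold. The hairpin mir-24-2 was 1.26-fold higher (1.23 to 1.29), mir-23a was 1.15-fold lower (1.11 to 1.18) and mir-27a was 1.13-fold lower (1.08 to 1.18), and none of 6 hairpins was called, beside 40.4% of 458. The 3 comparisons within a material share columns, so their values are not independent of each other.

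The scaling moved all miRNAs of a comparison together. With DESeq2 size factors the median log2 ratio of all tested miRNAs shifted by 0.37 for acetaminophen against control hepatocytes, by 0.53 for acetaminophen plus G-CSF against control hepatocytes and by at most 0.20 in size in liver; no filter before scaling moved it by -0.57 in the hepatocyte comparison of acetaminophen with control, and column totals by up to 0.32 in liver. Of all mature calls, 49.1% were higher for acetaminophen against control hepatocytes, and this share was 59.2% with DESeq2 size factors and 27% with no filter before scaling. For acetaminophen plus G-CSF against control hepatocytes it was 44.2%, and 60% with DESeq2 size factors. In liver, it was 45.7% for acetaminophen against control, and 35.1% by column totals and 31.6% with no filter. It was 57.1% for acetaminophen plus G-CSF against acetaminophen liver, and 43.4% with DESeq2 size factors, 74.6% by column totals and 74.1% with no filter. For acetaminophen plus G-CSF against control liver it was 55.1%, and 65.9% by column totals. With DESeq2 size factors the ratios of miR-27 in acetaminophen hepatocytes and of miR-24-3p in acetaminophen liver against their controls, both near 1, changed direction. By column totals those of miR-23 and miR-27 in acetaminophen plus G-CSF against control liver did so too.

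**Figure D4:**
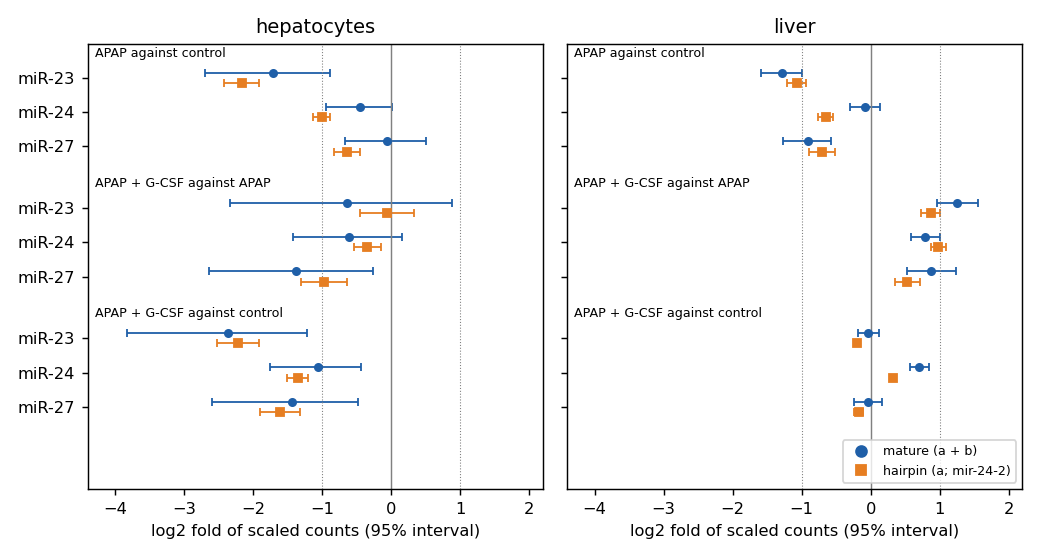
Log2 ratio of scaled counts with its exact 95% interval for miR-23, miR-24 and miR-27 in 3 comparisons, in hepatocytes (left) and liver (right), from mature counts of both entries summed (circles) and from hairpin counts of mir-23a, mir-24-2 and mir-27a (squares). The dotted lines mark 2-fold, and for acetaminophen (APAP) against control miR-23 lies lowest of the 3 in both materials and both tables.

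The ratio of miR-23 to miR-24 within a column needs no scaling, since both counts come from the same library. It was 0.279 in acetaminophen and 0.673 in control hepatocytes, and 0.482 in acetaminophen and 1.12 in control liver. The ratio was thus 2.41-fold lower with acetaminophen in hepatocytes (exact conditional 95% interval of the odds ratio 1.21 to 5.14) and 2.31-fold lower in liver (1.78 to 3.01). Hairpin counts gave the same direction in both materials: 0.215 in acetaminophen and 0.496 in control hepatocytes, 2.30-fold lower (2.01 to 2.65), and 0.616 in acetaminophen and 0.822 in control liver, 1.33-fold lower (1.22 to 1.46). In liver the size of the difference therefore depended on the table, and the acetaminophen liver is the column that stands apart in the hairpin table.

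With acetaminophen plus G-CSF the ratio of miR-23 to miR-24 was also lower than in the control. It was 0.273 in acetaminophen plus G-CSF hepatocytes, on 6 and 22 counts, with an interval that included equality (2.46-fold lower, 0.948 to 7.56). The hairpin ratio there was 0.268, against 0.496 in the control (1.86-fold lower, 1.57 to 2.2). In liver it was 0.669 with acetaminophen plus G-CSF and 1.12 in the control (1.67-fold lower, 1.45 to 1.93), and by hairpins 0.573 and 0.822 (1.43-fold lower, 1.39 to 1.47). All 4 treated columns thus had a lower ratio of miR-23 to miR-24 than their control in both tables, with 1 of the 8 intervals including equality. The 8 values share control columns and libraries and reuse the counts of the comparisons above. They are therefore not independent of those comparisons or of each other. Between acetaminophen plus G-CSF and acetaminophen, the mature ratio in liver was 1.38-fold higher (1.07 to 1.79). The hairpin ratio there was 1.07-fold lower with an interval that included equality (0.984 to 1.17), so only the mature counts gave a direction.

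The ratio of miR-27 to miR-24 did not move in 1 direction over both materials, though both treated livers were below control liver. In hepatocytes it was 0.409, 0.698 and 0.533 with acetaminophen plus G-CSF, acetaminophen and no treatment. In liver it was 0.387, 0.363 and 0.647. Acetaminophen liver was 1.78-fold lower than control liver by mature counts (1.33 to 2.39) and 1.05-fold lower by hairpins (0.942 to 1.16). Acetaminophen plus G-CSF liver was 1.67-fold lower than control liver by mature counts (1.41 to 1.98) and 1.42-fold lower by hairpins (1.37 to 1.47). These sizes are near those of the ratio of miR-23 to miR-24 in the same comparison. Acetaminophen hepatocytes were 1.31-fold higher than control hepatocytes by mature counts (0.760 to 2.22) and 1.30-fold higher by hairpins (1.17 to 1.45).

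**Figure D5:**
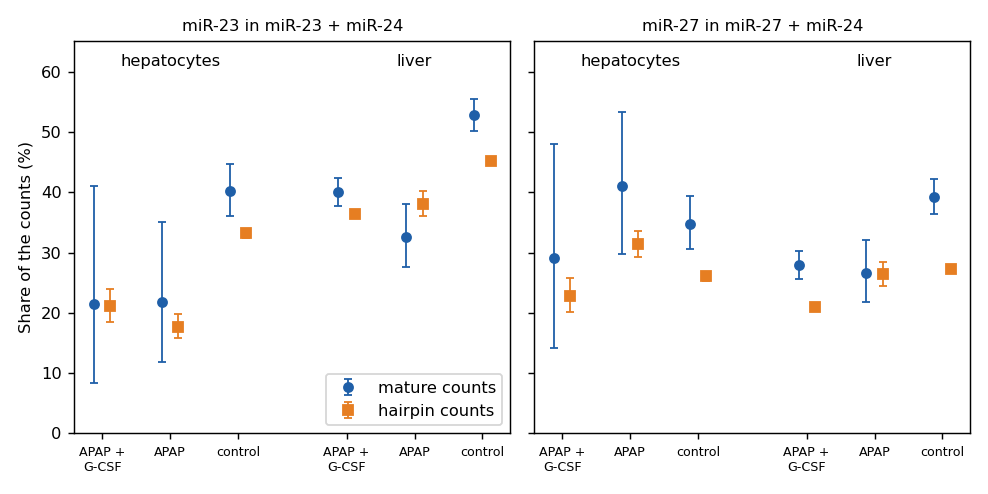
Share of miR-23 in the sum of miR-23 and miR-24 (left) and of miR-27 in the sum of miR-27 and miR-24 (right), in percent, per column, from mature counts (circles) and hairpin counts (squares) with exact binomial 95% intervals. The control is the highest column of each material for miR-23 in both tables, and for miR-27 it is the highest in liver only.

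Between materials, miR-23 took a smaller part of the sum with miR-24 in hepatocytes than in liver. The mean share was 27.8% ± 10.7 in hepatocytes and 41.8% ± 10.3 in liver by mature counts (SD over 3 columns each; two-sided exact permutation test, p = 0.3, adjusted p = 0.6). By hairpin counts it was 24% ± 8.13 and 39.9% ± 4.6 (p = 0.1, adjusted p = 0.4, same exact test), where the hepatocyte and liver columns did not overlap and 0.1 is the smallest p possible. Matched by treatment, hepatocytes were lower than liver in 3 of 3 pairs in each table. An exact permutation test within the pairs gave p = 0.25 in both, the smallest that 3 pairs allow. The adjusted values cover 4 such comparisons, for miR-23 and miR-27 in each table. The share of miR-27 was 35.0% ± 6.03 in hepatocytes and 31.3% ± 6.97 in liver by mature counts (p = 0.5, adjusted p = 0.6, same exact test), lower in hepatocytes in 1 of 3 matched pairs.

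A test across the 6 hepatocyte and liver columns with treatment as a covariate found no difference in any member. In edgeR's quasi-likelihood test with Benjamini-Hochberg adjustment, miR-23a-3p was lower in hepatocytes than in liver by a log2 value of -1.32 (SE 0.98, adjusted p = 0.399), miR-24-3p by -0.45 (SE 0.95, adjusted p = 0.812) and miR-27a-3p by -0.21 (SE 0.98, adjusted p = 0.90). In that comparison 10 of 180 miRNAs (5.56%) passed at an adjusted p of 0.05, and DESeq2 called 30 of 135. Of the hepatocyte markers, miR-122-5p was lower in hepatocytes by a log2 value of -0.24 (SE 1.26, edgeR adjusted p = 0.908). miR-192-5p and miR-194-5p were higher there, by 2.44 (SE 1.07, edgeR adjusted p = 0.142) and 0.52 (SE 1.01, edgeR adjusted p = 0.811). DESeq2 called miR-192-5p (log2 value 2.62, DESeq2 adjusted p = 0.00358). Of the other marker miRNAs, miR-143-3p of smooth muscle and stromal cells was lower in hepatocytes by a log2 value of -5.0 (SE 1.31, edgeR adjusted p = 0.00468). The endothelial marker miR-126a-3p, with 25, 69 and 85 counts in acetaminophen plus G-CSF, acetaminophen and control hepatocytes and 843.5, 403 and 1366 in the corresponding livers, differed by -1.31 (SE 1.00, edgeR adjusted p = 0.411), a size near that of miR-23a-3p. The other endothelial marker, miR-126a-5p, went the other way, by 0.58 (SE 1.16, edgeR adjusted p = 0.811). The part of other cell types in the difference between materials was not tested.

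For a treatment difference shared by hepatocytes and liver, the same fit called no member. Acetaminophen against control gave 1 of 180 miRNAs (0.556%), miR-2137, named after its value was seen, and DESeq2 called 2. There the log2 difference was -1.54 for miR-23b-3p (SE 1.17) and -1.51 for miR-23a-3p (SE 1.17), with an edgeR adjusted p of 0.725 for both. Acetaminophen plus G-CSF against acetaminophen gave 0 of 180 (0%) in edgeR, with 2 at an unadjusted p under 0.05 and 0 in DESeq2. Acetaminophen plus G-CSF against control also gave 0 of 180 (0%) in edgeR, with 3 at an unadjusted p under 0.05 and 2 in DESeq2.

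In the exosome columns the members were at or near 0, and none reached 10 mature counts in any of the 6. In serum exosomes the 5 members summed to 0, 2 and 13 mature counts with acetaminophen plus G-CSF, acetaminophen and no treatment. In control serum exosomes this was 0.2% of 6515 counts (95% Wilson interval 0.117% to 0.341%), against 3.70% in control liver (3.54% to 3.87%), a share 18.6-fold lower (10.8 to 34.9). With a floor of 3 counts, the 0 of 692 counts with acetaminophen plus G-CSF gives a share of 0.434% (95% Wilson upper limit 0.552%). That is 11.5-fold lower than the 5.0% in liver under the same treatment, with a lower 95% limit of 9.37-fold. By its title that serum column is the acetaminophen one, and against the 2.09% in acetaminophen liver its share at the same floor was 4.83-fold lower. The hairpin table held 650 counts of the 6 hairpins in control serum exosomes, 0.359% against 3.92% in control liver (10.9-fold lower, 10.1 to 11.8).

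Among those serum counts mir-23b and mir-23a had 150.5 and 153.5, mir-24-1 and mir-24-2 had 108.5 each, and mir-27b and mir-27a had 64.7 each. By hairpin counts the order of mir-23 over mir-24 was thus the opposite of that in control liver, where mir-23a had 9634 and mir-24-2 had 11663. By mature counts miR-23 exceeded miR-24 in control liver (739 against 660). Control serum exosomes had 1.5 mature counts for each miR-23 entry and 3 for miR-24-3p, so the opposite order rests on the hairpin counts. In acetaminophen plus G-CSF serum exosomes the b share of mir-23 and mir-27 was 15.6% with an exact interval of 2.52% to 55.6%, on about 10 counts. With mir-24 added it was 14.9% (1.92% to 45.4%), on 1.92 counts for the b hairpins and 10.9 for the a hairpins. The hairpins mir-23b and mir-23a had 1.25 and 4.25 of these counts and mir-27b and mir-27a had 0.333 and 4.33. The interval with mir-24 leaves out an even split, but it covers counting error only, on rounded counts of 1 column. As the reads of a pair cannot be assigned to a cluster, it cannot show whether the clusters differed in output.

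In hepatocyte exosomes the members summed to 1, 0 and 0 mature counts with acetaminophen plus G-CSF, acetaminophen and no treatment. With a floor of 3 counts, the 0 of 335 counts in the control gives a share of 0.896% (95% Wilson upper limit 1.13%). That is 2.85-fold lower than the 2.55% in control hepatocytes, with a lower 95% limit of 2.31-fold. In the treated hepatocyte exosomes the same floor gives 3.30% with acetaminophen, above the 1.59% of the hepatocytes themselves, so a difference was not detectable at this depth. miR-122-5p was low there too, with 1 of 335 counts in control exosomes against 14.1% in control hepatocytes.

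Among miRNAs of related sequence, miR-128-3p carries the seed of miR-27 shifted by 1 base. The octamer in capitals below also begins at the second base of both miR-27 strands; RefSeq places it on chromosomes 1 and 9:
miR-128-3p: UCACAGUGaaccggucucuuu
It had 27, 7 and 10 counts in acetaminophen plus G-CSF, acetaminophen and control liver and 0, 0 and 5 in the corresponding hepatocytes. In acetaminophen plus G-CSF liver it was 2.74-fold higher than in the control (1.28 to 6.34) and passed the rule, where miR-27 did not. Its hairpins mir-128-1 and mir-128-2, with 266 counts each in acetaminophen plus G-CSF liver and 145.5 in control liver, were 2.03-fold higher (1.65 to 2.5).

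Over the 6 hepatocyte and liver columns, the mature miRNA whose pattern was most like miR-23 was let-7d-5p (Pearson r = 0.98 with miR-23b-3p and with miR-23a-3p, of the log2 of depth-scaled counts plus 1, among 118 candidates). let-7d-5p was also the nearest to miR-24-3p (r = 0.95), and miR-34a-5p was the nearest to miR-27b-3p and miR-27a-3p (r = 0.94 with each). Within the family, miR-23a-3p correlated with miR-24-3p at 0.93 and with miR-27a-3p at 0.88, below its value with let-7d-5p. Among 186 hairpins the nearest were let-7e for mir-23b and mir-23a (r = 1.00 after rounding) and mir-532 for mir-24-1, mir-24-2, mir-27b and mir-27a (r = 0.98 for each). The 6 columns differ in material, treatment and depth together, so these values only describe them.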

How the data were processed

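The authors deposited estimated counts (expected counts) per mature miRNA and per hairpin, with PGM and Proton samples combined in 1 column per condition, per the file headers. The labels' protocols name a Norgen RNA kit and the Ion Total RNA-Seq Kit v2, and no source used here names the aligner, annotation release or genome build. Members and lists were chosen with earlier results of these data known. Named were the members, related strands, marker miRNAs, and the 3 miRNAs most alike in pattern, of which the nearest is given. Counts were rounded for tests. Hepatocyte and liver ratios used TMM factors (edgeR 4.0.16) over miRNAs with at least 10 counts in 1 column, exosomes column totals; a count of 0 was set to 3 for bounds. Intervals are 95% and cover counting error only. edgeR's quasi-likelihood test used material and treatment terms over 6 columns, where p-values measure the spread left after these terms; DESeq2 1.42.0 was an alternative. Code was tested on simulated data. Sequences are from RefSeq and overlaps from GENCODE (GRCm38).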

Additional observations from a re-analysis of the deposited data

Results flagged for a closer look

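For miR-24-3p the change with acetaminophen plus G-CSF against the control ran in opposite directions in the 2 materials. The log2 ratio was -1.06 in hepatocytes (22 against 309 counts) and 0.71 in liver (1063 against 660 counts), a difference of -1.77. Each material has 1 column per treatment, so the difference was not tested. The direction in each material was kept under every scaling and in the hairpin table, where the log2 ratios of mir-24-2 were -1.36 in hepatocytes and 0.33 in liver. The doses were given to cultures in one case and to mice in the other.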

How the results depend on the processing

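No paired analysis was possible because the labels give no replicate number, only an instrument, and the columns combine both. With the serum columns exchanged by title, no member reached 10 mature counts. By hairpins none of 6 was called against control serum with either assignment. Of all hairpins tested for acetaminophen against control serum, 11.6% of 198 were called by the treatment fields and 44.2% of 242 by title. By title, the acetaminophen ratio was 0.300 for mir-23b and 1.17 for mir-23a. For single members, all of the 2-fold calls of miR-23 kept their direction. Reversed log2 ratios, none of them called in either setting, were 0.32 and 0.30 for miR-27a-3p and miR-27b-3p in acetaminophen against control hepatocytes and 0.090 for miR-24-3p in liver (DESeq2 size factors). By column totals, acetaminophen plus G-CSF against control liver gave 0.12, 0.11, 0.11 and 0.12 for miR-23a-3p, miR-23b-3p, miR-27a-3p and miR-27b-3p. In the fit over 6 columns, none of it called, hepatocytes against liver gave 0.013 and 0.016 for miR-27a-3p and miR-27b-3p with all 12 columns, and with 1 treatment left out -0.70 to 0.077 for miR-24-3p, -0.68 to 0.39 for miR-27a-3p and -0.67 to 0.40 for miR-27b-3p. For acetaminophen plus G-CSF against acetaminophen it gave 0.21 (DESeq2), 0.34 (no filter), 0.041 (12 columns) and 0.34 (hairpins) for miR-24-3p, 0.0026 and 0.0095 (no filter) and 0.030 and 0.035 (12 columns) for miR-27a-3p and miR-27b-3p.

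Members called lower in acetaminophen against control hepatocytes moved to 4 of 6 by hairpins, beside 96 of all 302 hairpins. With no filter they moved to 3 of 5, beside 46 of 100 mature miRNAs, up from 27. In acetaminophen plus G-CSF against control hepatocytes they moved to 2 of 5 with DESeq2 factors, beside 18 of 100, down from 29. In acetaminophen against control liver they moved to 4 of 5 by column totals, no filter or a 1.5-fold limit. Called lower there were 50, 54 and 53 of 160 mature miRNAs, up from 44. Members called higher in acetaminophen plus G-CSF against acetaminophen liver moved to 5 of 5 under the same 3 settings. Beside them 44, 43 and 43 of 162 mature miRNAs were called higher, up from 28. By hairpins they moved to 0 of 6, beside 66 of 379 called higher. Against control liver they moved to 1 of 5 with a 1.5-fold limit, beside 35 of 171 called higher, up from 27. Hairpins, a larger table, gave 187, 52 and 173 calls in the hepatocyte comparisons (acetaminophen against control, with G-CSF against acetaminophen, with G-CSF against control) and 157, 119 and 185 in liver. For hepatocytes against liver, calls were 30 (DESeq2), 4 (12 columns), 56 (hairpins) and 0 to 9 with 1 treatment left out, 0 of them without the acetaminophen columns, where 10 had an unadjusted p under 0.05. For acetaminophen against control they were 2 (DESeq2), 0 (no filter), 0 (12 columns) and 10 (hairpins), and for acetaminophen plus G-CSF against control 2 (DESeq2) and 2 (hairpins).

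The difference in b share between hepatocytes and liver was -0.019 to 0.417 percentage points with 1 treatment left out, and that in the share of miR-27 -1.69 to 7.80. In hairpins the log2 ratio of miR-23 to miR-24 with acetaminophen plus G-CSF was 0.31 against acetaminophen hepatocytes, -0.89 against control hepatocytes and -0.10 against acetaminophen liver. That of miR-27 to miR-24 was 0.38 (acetaminophen against control), -0.63 (acetaminophen plus G-CSF against acetaminophen) and -0.25 (against control) in hepatocytes. In liver it was -0.065 for acetaminophen against control and -0.44 for acetaminophen plus G-CSF against acetaminophen. The cause of these differences was not tested. Depth limits the treated hepatocyte columns, with 3 to 43 counts per member, and the exosome columns.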
